A study of Mus musculus with 6 samples.

Results

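A set of 10 genes of blood vessel endothelium was followed in whole mouse kidneys with and without a deletion of the transferrin receptor TfR1 in part of the nephron. The genes were chosen as endothelial and capillary genes by symbol, with earlier results of these data known, and all 10 of 10 were found among the 24422 genes counted and passed the filter on low counts that left 15171 genes to test. RNA was sequenced from 6 whole kidneys of C57BL/6 mice at postnatal day 60, all fed an iron-sufficient diet with 220 ppm iron. In 3 libraries the labelled genotype was wild type (controls 1 to 3). The other 3, labelled TfR1KO;KspCre with the genotype Tfr1f/f;KspCre, are called knockouts 1 to 3 here. In these mice exons of Tfrc, the TfR1 gene, are flanked by recombination sites, and the Ksp-cadherin promoter, known from epithelium of the distal nephron, drives Cre. The endothelium is not a stated target of this Cre, and each of the 10 transcripts was read here from a mixture of all kidney cells.

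Endothelial cells line every vessel of the kidney, from the renal arterioles through the fenestrated capillaries of the glomerulus to the capillary net around the tubules. They are held together by junction proteins, survive on VEGF made by neighbouring epithelium, and are kept quiescent by angiopoietin signals through the Tie receptors. Capillaries around tubules carry pores closed by a diaphragm, whereas the pores of mature glomerular capillaries have none. Loss of the capillary net is a known feature of scarred kidneys.

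Total counts ranged from 11501053 in the library labelled knockout 3 to 21001341 in control 1. For Tfrc the controls had 2783, 2856 and 1032 counts and the knockouts 4368, 1713 and 530. The library labelled knockout 1 thus exceeded every control, and this gene gave no check of the labels. Gene counts take in exons outside the floxed part and cells without Cre. Control 2 stood apart in its sex-linked transcripts, with 52 counts of Xist and 3980 counts summed over 4 Y-linked genes, against at least 10458 and at most 5 in the other libraries. Nephron markers were present and all 8 proximal tubule markers were lower in knockouts (median log2 fold change -2.14), with a summed level of 9664 to 13255 CPM in controls and 1722 to 4783 CPM in knockouts. Of 6 distal nephron markers 0 were called (edgeR), the median log2 fold change was -0.90, and the summed level of 8204 to 13026 CPM in controls overlapped that of 2443 to 10189 CPM in knockouts. Without knockout 1 this median was -1.74 and 2 of the 6 were called lower (edgeR), beside 16.4% of all genes called lower in that fit. The median was -0.45 without knockout 3 and -1.73 by limma-voom. CPM are counts per 1e+06 counts of a library after TMM scaling between libraries. In whole tissue, fewer cells of a type and less RNA per cell cannot be told apart.

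The 10 genes did not move as a block. Nos3, the endothelial nitric oxide synthase, was the only one called different (edgeR's quasi-likelihood test, adjusted p under 0.05), and it rose. The adhesion genes Pecam1 and Cdh5 lay higher in every knockout than in every control without passing the test. Kdr, Flt1, Tek, Emcn, Plvap and Ehd3 had log2 fold changes between -0.26 and 0.14, and Tie1 was at 0.60 with overlapping groups. One call in 10 stands beside 17.2% of all genes tested that were called, 10.6% higher and 6.64% lower. Groups did not overlap, with knockouts higher, for 3 of the 10 genes, against 23.8% of all genes tested, and with knockouts lower for 0 of the 10, against 22.2%. The median log2 fold change was 0.097 over the 10 genes and 0.021 over all genes tested.

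**Figure D1:**
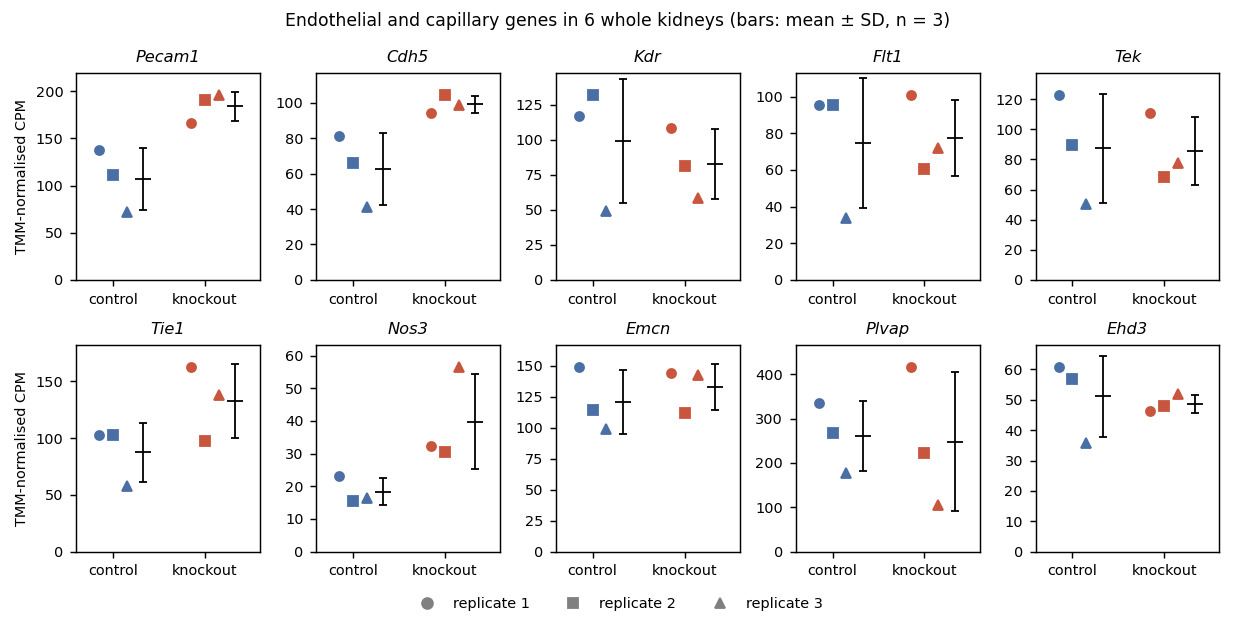
TMM-normalised CPM (y axis, from 0) of each of the 10 genes in the 3 control (blue) and 3 knockout (red) libraries, with the replicate number as the symbol and the mean ± SD beside each group. Pecam1, Cdh5 and Nos3 show no overlap between groups, and control 3 is the lowest library for 8 of the 10 genes.

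Promoter sequences were had for 6 of the 10 genes (Kdr, Flt1, Tek, Tie1, Emcn and Ehd3). The 4 receptor genes are shown, since they form the receptor pairs compared below. Each line gives the 250 bases before the RefSeq start of the gene, 5′ to 3′ (RefSeq, GRCm38.p6), and capitals mark GGAA or its reverse complement TTCC, the core letters bound by ETS factors, a family known for its part in endothelial gene expression.
Kdr (chr5:75978456-75978705, minus strand): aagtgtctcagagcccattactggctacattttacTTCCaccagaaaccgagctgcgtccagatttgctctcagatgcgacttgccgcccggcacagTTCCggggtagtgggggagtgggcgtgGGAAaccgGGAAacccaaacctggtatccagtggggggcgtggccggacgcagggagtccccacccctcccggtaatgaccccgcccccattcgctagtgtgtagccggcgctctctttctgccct
Flt1 (chr5:147726012-147726261, minus strand): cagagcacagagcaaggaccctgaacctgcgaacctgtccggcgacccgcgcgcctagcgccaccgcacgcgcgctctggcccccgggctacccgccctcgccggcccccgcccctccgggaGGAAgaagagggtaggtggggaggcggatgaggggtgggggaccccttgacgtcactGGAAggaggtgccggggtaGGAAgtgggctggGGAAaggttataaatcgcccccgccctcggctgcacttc
Tek (chr4:94739039-94739288, plus strand): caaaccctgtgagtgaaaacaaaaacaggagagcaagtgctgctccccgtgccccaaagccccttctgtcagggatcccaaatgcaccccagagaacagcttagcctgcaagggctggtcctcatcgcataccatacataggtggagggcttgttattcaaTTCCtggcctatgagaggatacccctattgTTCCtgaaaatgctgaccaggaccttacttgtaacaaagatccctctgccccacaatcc
Tie1 (chr4:118489850-118490099, minus strand): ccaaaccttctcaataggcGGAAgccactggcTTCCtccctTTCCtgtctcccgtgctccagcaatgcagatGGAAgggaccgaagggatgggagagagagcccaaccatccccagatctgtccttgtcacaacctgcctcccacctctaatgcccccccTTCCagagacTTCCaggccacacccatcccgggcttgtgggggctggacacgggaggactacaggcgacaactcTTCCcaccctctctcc
On both strands together, the core occurred 4 times in Kdr, 4 times in Flt1, 2 times in Tek and 7 times in Tie1, and it occurred 4 times in Emcn and 3 times in Ehd3. These letters are common, as 93.4% of the 32851 promoter windows of this length held at least 1 match, with a median of 3. At least 7 matches, as in Tie1, were in 3.82% of windows, and at least 4, as in Kdr, in 33.4%. The letters GATAA or TTATC were in none of the 6 windows and in 22.6% of all, whereas TATAAA or TTTATA was in the Flt1 window only and in 12.4% of all.

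The junction and adhesion genes were examined first. Pecam1 (CD31; chromosome 11, 106515531 to 106611942, minus strand, mm9) encodes an adhesion molecule of endothelial contacts that platelets and leukocytes also carry. It was at 138, 111 and 72.3 CPM in controls and at 167, 190.5 and 196 CPM in knockouts. All 3 knockouts lay above all 3 controls, and the knockouts were close to one another. The log2 fold change was 0.78 (SE 0.24, 95% interval 0.21 to 1.36) and did not pass the threshold (edgeR, adjusted p 0.0651). Cdh5 (chromosome 8, 106625525 to 106668402, plus strand) encodes VE-cadherin, the adherens junction cadherin that defines endothelium. It was at 81.1, 66.1 and 40.9 CPM in controls and at 94.3, 104 and 98.7 CPM in knockouts. Again the groups did not overlap, and the log2 fold change was 0.66 (SE 0.24, 95% interval 0.080 to 1.24; edgeR, adjusted p 0.0961). Without control 3 it was 0.42. These genes had the most similar profiles of all 45 pairs among the 10 genes, with a root mean square difference of 0.078 between their centred log2 CPM over the 6 libraries. By the Wald test of DESeq2, which called 32.2% of all genes, Pecam1 was called (adjusted p 0.0214) and Cdh5 was not (adjusted p 0.0668). With upper quartile scaling, where edgeR called 18.2% of all genes, Pecam1 was called as well (adjusted p 0.0491).

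Nos3 (chromosome 5, 23870628 to 23890292, plus strand) makes the nitric oxide that relaxes vessels. The 3 controls held 465, 262 and 275 counts of it and the 3 knockouts 661, 606 and 738. On the CPM scale these were 23.1, 15.4 and 16.5 against 32.4, 30.4 and 56.5, or 18.3 ± 4.18 against 39.8 ± 14.5 CPM (SD, n = 3 each). The lowest knockout stood above the highest control, and the library labelled knockout 3 stood furthest out. Nos3 rose by 1.11 on the log2 scale (SE 0.29, 95% interval 0.43 to 1.80; edgeR, adjusted p 0.0449). The call was close to the threshold and was lost in 5 of the 6 fits that left out 1 library. The log2 fold change and adjusted p (edgeR) were 1.30 and 0.0824 without control 1, 1.00 and 0.144 without control 2, 1.04 and 0.129 without control 3, 1.27 and 0.0800 without the library labelled knockout 2, and 0.77 and 0.0921 without that labelled knockout 3. These fits called few genes of any kind. Without control 1, 2 or 3, edgeR called 0 genes (0%) in the whole table, while 4808, 4270 and 4823 genes had an unadjusted p under 0.05. Without knockout 2 it called 0.474% of all genes and without knockout 3 0.0130%. Without knockout 1, where 34.4% of all genes were called, Nos3 was at 1.23 (edgeR, adjusted p 0.0258). By limma-voom, which called 13.4% of all genes, Nos3 was at 1.04 and was not called (adjusted p 0.0570).

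Part of the Nos3 transcript is shared ground. Of its 4132 exon bases, 32.3% also lie in exons of genes annotated on the other strand, Atg9b (7.12%) and Gm15587 (25.2%). The strand setting of the counting was not given in the sources used here, so reads from these parts cannot be assigned to 1 strand. Atg9b, an autophagy gene, had 22, 7 and 16 counts in controls and 99, 174 and 28 in knockouts. These were fewer than the Nos3 counts in every library, and Atg9b was itself called higher (log2 fold change 2.66, SE 0.62; edgeR, adjusted p 0.0366). Gm15587 was not listed by this symbol among the 24422 genes counted, so it has no counts of its own here. The part of either gene in the Nos3 value was not tested. The other 9 genes share no exon bases with another annotated gene.

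**Figure D2:**
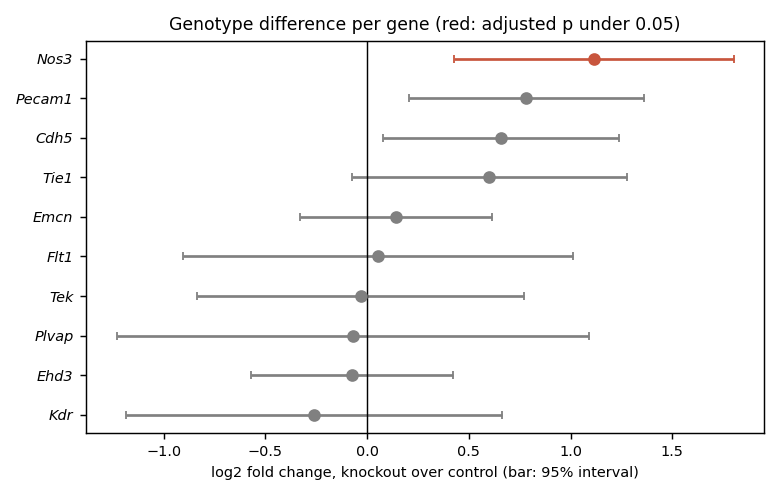
Log2 fold change of knockout over control (x axis) for each of the 10 genes (y axis), with the 95% interval of the edgeR fit as the bar and the gene called at an adjusted p under 0.05 in red. Nos3, Pecam1 and Cdh5 have intervals above 0, while the other 7 intervals include 0.

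The VEGF receptors were next. Kdr (VEGF receptor 2; chromosome 5, 76328852 to 76374483, minus strand) is the main signalling receptor for VEGF-A on endothelium. It was at 117, 132 and 49.0 CPM in controls and at 108, 81.5 and 58.6 CPM in knockouts. Control 3 was below every knockout while controls 1 and 2 were above them, so the groups overlapped. The log2 fold change was -0.26 (SE 0.39, 95% interval -1.18 to 0.66; edgeR, adjusted p 0.650). Flt1 (VEGF receptor 1; chromosome 5, 148373180 to 148537587, minus strand) binds VEGF-A tightly and also exists as a soluble form that traps it, which counts per gene do not separate. It was at 95.4, 95.5 and 33.8 CPM in controls and at 101, 60.4 and 71.9 CPM in knockouts. The log2 fold change of Flt1 was 0.053 (SE 0.40, 95% interval -0.90 to 1.01; edgeR, adjusted p 0.934). These intervals are wide, so a 2-fold lower level of Kdr or a 2-fold higher level of Flt1 could not be told from no difference. Both values moved with single libraries. Kdr ranged from -0.59 without control 3 to -0.010 without control 2, and it was at -0.51 without knockout 1. Flt1 was at -0.30 without control 3, at -0.19 without knockout 1 and at up to 0.26 in the other fits that left out 1 library.

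The Tie receptors came next. Tek (Tie2; chromosome 4, 94405980 to 94541667, plus strand) is the receptor for the angiopoietins. It was at 123, 89.5 and 50.2 CPM in controls and at 111, 68.1 and 77.5 CPM in knockouts, a log2 fold change of -0.032 (SE 0.34, 95% interval -0.84 to 0.77; edgeR, adjusted p 0.953). Tie1 (chromosome 4, 118143796 to 118162666, minus strand) has no known ligand of its own and modulates Tek. It was at 103, 103 and 57.3 CPM in controls and at 163, 97.7 and 138 CPM in knockouts. The library labelled knockout 2 fell below controls 1 and 2, and the log2 fold change of 0.60 (SE 0.29, 95% interval -0.076 to 1.28) was not called (edgeR, adjusted p 0.167). It was 0.37 without control 3 and 0.78 without knockout 2. Within a library, log2 CPM of Tie1 minus that of Tek was -0.26, 0.20 and 0.19 in controls and 0.55, 0.52 and 0.83 in knockouts. Every knockout had more Tie1 relative to Tek than any control. The same difference for Kdr minus Flt1 was 0.29, 0.46 and 0.54 in controls and 0.10, 0.43 and -0.29 in knockouts, and the groups overlapped. For Pecam1 minus Cdh5 it was 0.764, 0.754 and 0.822 in controls and 0.824, 0.871 and 0.987 in knockouts. Here too every knockout lay above every control, by a narrow margin. How many other gene pairs separate likewise was not tested, so the Tie1 to Tek shift cannot be called particular. All these pairs were chosen with the values known and are given as a description.

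Of the capillary genes, Plvap varied most between knockouts. Plvap (chromosome 8, 74021653 to 74035668, minus strand) forms the diaphragms that close the pores of capillaries around the tubules. It was at 336, 268 and 177 CPM in controls and at 416, 224 and 104 CPM in knockouts. The library labelled knockout 1 was the highest of the 6 and that labelled knockout 3 the lowest, so the knockouts spanned a wider range than the controls. The log2 fold change was -0.070 (SE 0.49, 95% interval -1.23 to 1.09; edgeR, adjusted p 0.930), and it was -0.68 without knockout 1 and 0.30 without knockout 3, neither called (edgeR, adjusted p 0.232 and 0.635).

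Emcn (endomucin; chromosome 3, 137004031 to 137095149, plus strand) is a sialomucin of capillary and venous endothelium. It was at 149, 114 and 98.8 CPM in controls and at 144, 112 and 143 CPM in knockouts, a log2 fold change of 0.14 (SE 0.20, 95% interval -0.33 to 0.61; edgeR, adjusted p 0.630). It lay between 0.012 (without control 3) and 0.30 (without control 1) when 1 library was left out. Ehd3 (chromosome 17, 74154181 to 74181433, plus strand) encodes a membrane trafficking protein that in kidney marks glomerular endothelium. It was at 60.8, 56.8 and 35.9 CPM in controls and at 46.3, 47.8 and 51.8 CPM in knockouts. All 3 knockouts lay between the lowest and the other controls. The log2 fold change was -0.074 (SE 0.21, 95% interval -0.57 to 0.42; edgeR, adjusted p 0.820). The intervals of Emcn and Ehd3 were the narrowest of the 10 and leave out a 2-fold difference, whereas that of Plvap was the widest.

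Levels can be compared between genes only per length, as CPM per kilobase of annotated exon. Plvap was the highest in controls, at 129 ± 39.5 (SD, n = 3), and Nos3 the lowest at 4.44 ± 1.01. Between them lay Pecam1 (24.8 ± 7.62), Emcn (22.3 ± 4.74), Tek (18.6 ± 7.69), Tie1 (17.8 ± 5.32), Cdh5 (15.7 ± 5.09), Ehd3 (14.0 ± 3.66), Kdr (13.6 ± 6.05) and Flt1 (6.46 ± 3.07). The steps from Pecam1 down to Kdr were each smaller than the SD of either neighbour. In knockouts Pecam1 was at 42.7 ± 3.56 and Nos3 at 9.62 ± 3.51, above Flt1 at 6.71 ± 1.79, while Plvap stayed the highest at 123 ± 78.1. All exons of all annotated transcripts were counted in the length, which lowers the value of genes with long rare exons.

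Control 3 stood apart among the controls. It was the lowest library for 8 of the 10 genes, against 18.9% of all genes tested for which it was the lowest. Summed over the 10 genes, the level was 1225, 1051 and 632 CPM in controls and 1383, 1016 and 996 CPM in knockouts, and the groups overlapped. With all libraries 6 of the 10 genes had a positive log2 fold change. That number was 5 without control 3 (median of the 10 -0.13), 5 without knockout 1 (median 0.0099) and 9 without control 1 (median 0.29). Scaling counted as well. With library size alone all 10 genes had a positive value and Nos3, Pecam1 and Cdh5 were called, beside 24.0% of all genes (19.6% higher and 4.36% lower), but the median of all genes also shifted to 0.29, and the median of the 10 was then 0.36.

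To compare the genes with one another within a library, each was set against the junction genes of the same library, as log2(CPM + 0.5) minus the mean of the same for Pecam1 and Cdh5. For Ehd3 this was -0.79, -0.59 and -0.59 in controls and -1.43, -1.55 and -1.42 in knockouts, a difference of -0.81. For Kdr it was 0.14, 0.61 and -0.15 in controls and -0.22, -0.79 and -1.24 in knockouts, a difference of -0.95. For Tek the difference was -0.74 and for Emcn -0.62. The size rested on the reference, as against Pecam1, Cdh5, Tie1 and Kdr together the differences were -0.53 for Ehd3, -0.46 for Tek and -0.34 for Emcn. With each gene left out of its own reference, Kdr was at -0.90 against Pecam1, Cdh5 and Tie1, and 3 genes rather than 4 had every knockout below every control. Against Pecam1 and Cdh5, in these 4 genes every knockout lay below every control, by the tightest margin in Kdr and Tek and by the clearest in Ehd3. This is no result about the 4, since 57.1% of all other genes tested were likewise lower without overlap on this ratio and 2.73% higher, and the median difference over those genes was -0.75.

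Each of the 4 differences had a p of 0.1 in a two-sided exact permutation test, which is the smallest that 3 against 3 libraries allow, and an adjusted p of 0.2 over the 8 genes compared. None could therefore pass the threshold. Flt1 (-0.60, exact permutation p 0.2), Plvap (-1.01, p 0.4), Tie1 (-0.15, p 0.8) and Nos3 (0.29, p 0.5) overlapped between groups, with adjusted p of 0.320, 0.533, 0.800 and 0.571. These differences moved with single libraries, from -1.54 (without knockout 1) to -0.47 (without knockout 3) for Plvap, from 0.035 (without knockout 3) to 0.50 (without control 3) for Nos3, and from -0.36 (without knockout 1) to 0.084 (without knockout 2) for Tie1. For Plvap the controls were within 1.64 and 1.70, while knockouts stood at 1.73, 0.66 and -0.41. Pecam1 and Cdh5 themselves lay higher in every knockout than in any control, so a lower value here is a lower level relative to Pecam1 and Cdh5 and not an absolute loss, and a gene with no difference of its own comes out lower.

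**Figure D3:**
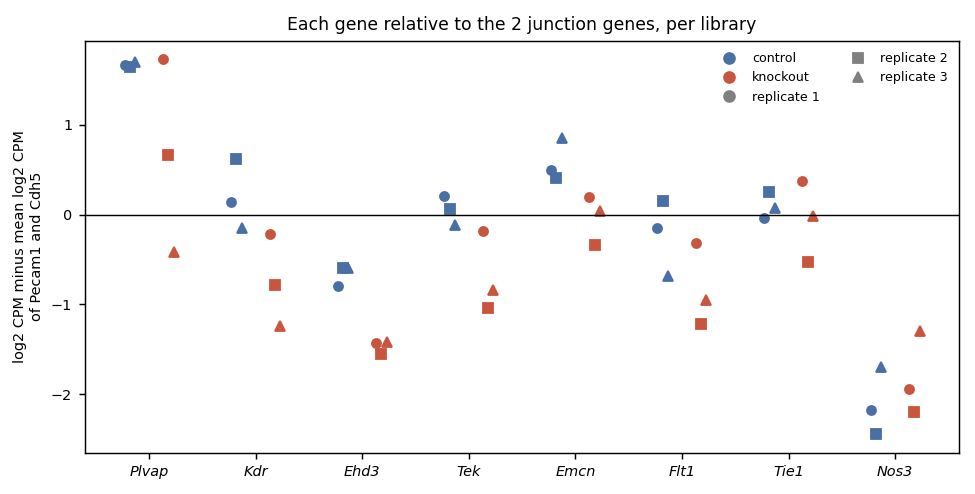
Log2 CPM of 8 genes minus the mean log2 CPM of Pecam1 and Cdh5 in the same library (y axis), for 3 controls (blue) and 3 knockouts (red), with the replicate number as the symbol. For Kdr, Ehd3, Tek and Emcn all knockouts lie below all controls, as they do for 57.1% of all other genes tested on the same ratio.

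The ligands of these receptors and their partners came from lists of pathway genes. Across the 8 pathway lists 25 distinct genes were called with all 6 libraries. That number was 0 without control 1, 2 or 3, 38 without knockout 1, 2 without knockout 2 and 0 without knockout 3, and this limit holds for each gene called below. The counts of each list are read against the 10.6% of all genes tested that were called higher, the 6.64% called lower, and the 23.8% higher and 22.2% lower without overlap. Of 8 VEGF ligands and co-receptors, 1 was called higher and 0 lower, with a median log2 fold change of 0.35. One gene in 8 is near the 10.6% of all genes called higher. The median was 0.62 with library size alone, 0.56 without control 1 and 0.039 without knockout 2, where 4 of the 8 were positive. With knockout 1 left out, 2 of the 8 were called higher and 2 lower (edgeR). That fit called 34.4% of all genes, with 16.4% of all genes called lower, so these counts are not read against the shares above. Vegfc, the ligand of lymphatic growth, rose from 3.88 ± 0.107 CPM in controls to 8.91 ± 2.64 CPM in knockouts (SD, n = 3 each), or by 1.19 on the log2 scale (SE 0.28; edgeR, adjusted p 0.0380). Vegfa, named after its values were seen as the ligand of Kdr and Flt1, was at 255, 296 and 344 CPM in controls and at 326, 137 and 118 CPM in knockouts. The libraries labelled knockout 2 and knockout 3 lay below every control and knockout 1 did not, and the log2 fold change was -0.62 (SE 0.40; edgeR, adjusted p 0.282).

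Of 6 genes of the angiopoietin and Tie pathway, 1 was called higher and 0 lower, beside 17.2% of all genes called. Their median of -0.20 turned to 0.068 with library size alone and to 0.041 without knockout 3, and it was -0.39 without knockout 2. Angpt4, a ligand of Tek, rose from 0.185 ± 0.0623 CPM to 2.54 ± 2.17 CPM (SD, n = 3 each), or by 3.70 on the log2 scale (SE 0.79; edgeR, adjusted p 0.0326). The difference was 2.78 without knockout 3 and was not called by limma-voom (adjusted p 0.0536). It was the scarcest of these ligands. The main ligands, Angpt1 and Angpt2, were named after their values were seen, with log2 fold changes of -0.032 (SE 0.42) and -0.58 (SE 0.42), not called (edgeR, adjusted p 0.963 and 0.336).

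Of 10 genes around nitric oxide, 2 were called higher and 1 lower, beside 10.6% and 6.64% of all genes, with a median of 1.09. Nostrin, which carries the endothelial synthase away from the membrane, rose from 4.59 ± 0.556 CPM to 11.7 ± 2.48 CPM (SD, n = 3 each), or by 1.35 on the log2 scale (SE 0.26; edgeR, adjusted p 0.0303). Ddah1 and Ddah2 both degrade an inhibitor of nitric oxide synthases and went opposite ways. Ddah1, abundant in proximal tubule, fell from 288 ± 69.6 to 103 ± 44.4 CPM (log2 fold change -1.48, SE 0.34), and Ddah2 rose from 24.9 ± 4.84 to 76.6 ± 40.7 CPM (1.62, SE 0.37; SD, n = 3 each; edgeR, adjusted p 0.0362 and 0.0365).

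A further list held genes known from endothelium at large. All 27 had a positive log2 fold change (median 0.74), 7 were called higher and 0 lower, and groups did not overlap for 17. Of all 15171 genes tested 7810 were positive, 10.6% were called higher and 23.8% were higher without overlap. The 27 stayed positive under every scaling tried, and 26 were positive without knockout 1 or knockout 3. The 4 largest calls were Cd93, Ecscr, Cldn5 and Cd34, with log2 fold changes of 1.40 (SE 0.28), 1.34 (SE 0.22), 1.26 (SE 0.26) and 1.09 (SE 0.22; edgeR, adjusted p 0.0277 to 0.0325). Cldn5 is the tight junction claudin of endothelium, Ecscr a regulator of endothelial migration, and Cd34 a sialomucin that stem and stromal cells also carry. Cd93 is also made by myeloid cells.

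Of 6 arterial genes, 5 were called higher and 0 lower, with a median of 1.21 and no overlap between groups in all 6, beside 10.6% of all genes called higher and 23.8% higher without overlap. Gja4 and Gja5, connexins of arterial endothelium, rose by log2 fold changes of 1.61 (SE 0.41) and 1.11 (SE 0.20), Hey1, a Notch target, by 1.32 (SE 0.30) and Bmx, a kinase, by 1.63 (SE 0.43; edgeR, adjusted p 0.0289 to 0.0451). Gja4 was at 1.04 without knockout 3. By limma-voom 3 of the 6 were called, and Gja4 and Bmx were not. Of 13 tested genes of activation and sprouting, 6 were called higher and 0 lower (median 0.97, and 1.46 without knockout 3). The 4 largest were Cd276 (3.75, SE 0.36), Vcam1 (3.62, SE 0.33), Selp (3.41, SE 0.81) and Edn1 (2.70, SE 0.40; edgeR, adjusted p 0.0271 to 0.0382). Selp, which encodes P-selectin of endothelium and platelets, was at 2.43 without knockout 2, and was not called by limma-voom (adjusted p 0.0509). Vcam1 and Edn1 are known in injured tubule and collecting duct as well as in endothelium. Which cells made any of the 4, Cd276 among them, was not tested.

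Of 4 tested genes tied to glomerular endothelium, 0 were called higher and 1 lower. Lpl, lipoprotein lipase, was at 659 ± 254 CPM in controls and fell to 299 ± 42.6 CPM in knockouts (SD, n = 3 each), with a log2 difference of -1.14 (SE 0.30; edgeR, adjusted p 0.0458). With library size alone the difference was -0.84 and was not called (edgeR, adjusted p 0.0600). This enzyme is bound on capillary walls but made largely by other cells. Of 6 venous and lymphatic genes, 1 was called higher and 0 lower (median 0.16, and 0.052 to 0.26 without 1 library, lowest without control 3 and highest without control 1). Pdpn, a glycoprotein of lymphatic endothelium and of podocytes, rose from 9.76 ± 1.33 to 38.2 ± 19.6 CPM (SD, n = 3 each; log2 fold change 1.97, SE 0.40; edgeR, adjusted p 0.0313), and it was not called by limma-voom (adjusted p 0.0547).

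**Figure D4:**
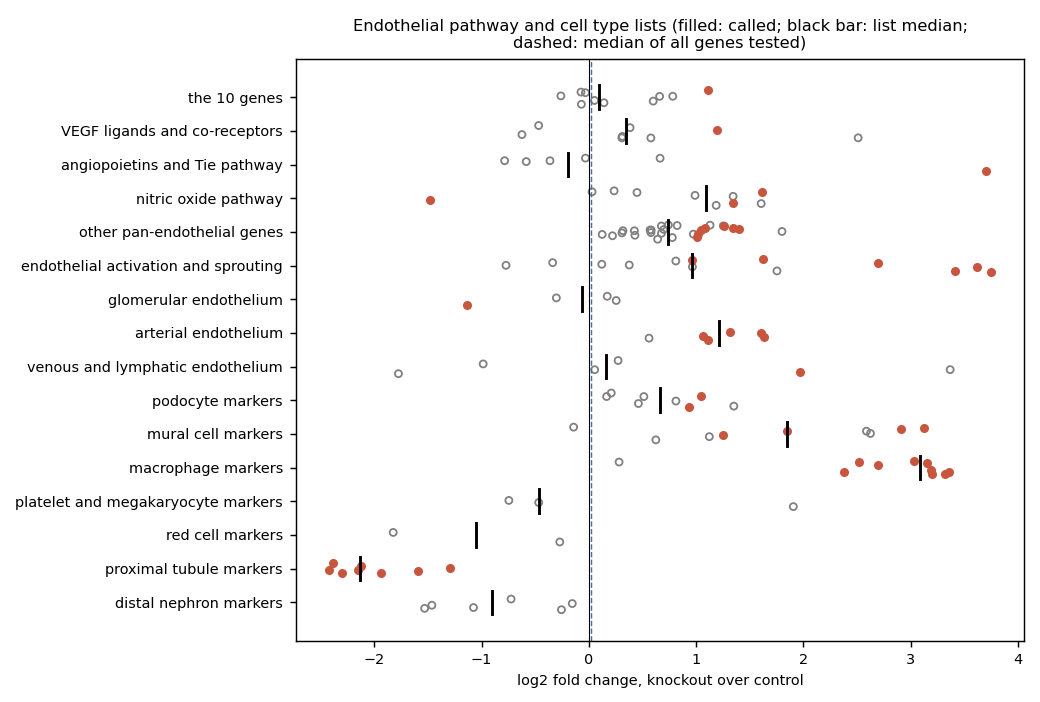
Log2 fold change of knockout over control (x axis) of every tested gene in each list (y axis), with called genes filled in red, list medians as black bars and the median of all genes tested (0.021) as the dashed line. The other pan-endothelial and arterial genes all lie above 0, while the 10 genes straddle it.

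Markers of other cell types were read in the same libraries. Of 10 macrophage markers 9 were called higher, and their summed level was 190 to 202 CPM in controls and 461 to 1472 CPM in knockouts. Of 9 markers of mural cells, which wrap vessels, 4 were called higher (1 by limma-voom), with a summed level of 399 to 457 CPM against 620 to 4148 CPM. Of 8 podocyte markers 2 were called higher, with 578 to 728 CPM against 809 to 1044 CPM. The 3 tested platelet markers summed to 17.1 to 21.2 CPM in controls and 13.9 to 16.9 CPM in knockouts, and 0 were called, with 3 of the 6 listed too low to test. Of 6 genes listed as red cell markers, the 4 globin genes were at 0 in every library. The other 2, Alas2 and Slc4a1, were tested and 0 called (median log2 fold change -1.05). Their summed level of 77.2 to 139.6 CPM in controls lay above the 14.0 to 67.5 CPM in knockouts. Whether kidney cells made part of these 2 transcripts was not tested, so the sum is no measure of blood content. Pecam1, Cd93 and Cd34 are also made by blood or stromal cells, and the part of these cell types in the endothelial values was not tested. Without any 1 control, or without knockout 3, 0 of the macrophage, mural and podocyte markers were called (edgeR). Without knockout 1, 9 macrophage, 7 mural and 2 podocyte markers were called higher (edgeR), beside 34.4% of all genes called in either direction in that fit.

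The genes outside the 10 whose profile over the 6 libraries was nearest to the median profile of the 10 were Ubash3b, Specc1, Itpkb, Dysf and Ppap2a, taken from 11072 genes with a mean log2 CPM of at least 3. Their root mean square difference from that profile was 0.094 to 0.13 on the log2 scale. The profile itself was lowest in control 3 (-0.76) and highest in the library labelled knockout 1 (0.32). None of the 5 was called (edgeR, adjusted p 0.277 to 0.751). They were picked for likeness to this profile in the same libraries, so this is no separate result.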

How the data were processed

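Poly-A RNA of 6 whole kidneys was sequenced in single-end reads. The authors deposited unnormalised counts, with a table for controls and another for knockouts. According to the study's methods and the submitters' processing notes, bases were called with CASAVA 1.8.2, reads were trimmed with Trimmomatic and aligned to mm9 with TopHat2 2.0.11, and uniquely mapped reads were counted with HTSeq. The gene annotation and strand setting are not given in the sources used here. Unique mapping lowers genes that share sequence with a copy.

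Groups and replicate numbers came from the sample titles. Replicates were compared for repeat deposits of 1 library, and no pair agreed within sampling noise (chi-square of 52.9 to 125 per degree of freedom). The labels name separate samples, and the design text calls them biological replicates.

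Counts were tested over all genes with edgeR 4.0.16 in R 4.3.3: filterByExpr (minimum count 10, minimum total 15), TMM, and the quasi-likelihood test in its default version, with no covariate and Benjamini-Hochberg adjustment over 15171 genes. A gene was called at an adjusted p under 0.05. The SE is the log2 fold change divided by the square root of F, and intervals are 95% t intervals of the same fit. Alternatives included DESeq2 1.42.0 and limma-voom (limma 3.58.1). The test was tried on simulated data first.

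The members and gene lists were chosen with earlier results of these data known. Named from each list were all called genes, or the 4 with the largest change where more than 4 were called. Coordinates and exon lengths are from GENCODE M1 (NCBIM37, mm9).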

Additional observations from a re-analysis of the deposited data

How the results depend on the processing

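Counts of calls depended on the processing. With all genes, 2612 (17.2%) were called, and 4882 (32.2%) by DESeq2's Wald test and 5034 (33.2%) at an adjusted p under 0.10. With the Xist to Y ratio as a covariate 0 were called (4221 at an unadjusted p under 0.05), and between 0 and 5332 (34.4%) without 1 library. Upper quartile scaling called 18.2%, library size alone 24.0% and limma-voom 13.4% of all genes. The counts below are read against these shares. Of the 10 genes, 1 was called, and 2 with upper quartile scaling, 3 with library size alone, 2 by DESeq2, 0 by limma-voom, 0 with the covariate, 3 at an adjusted p under 0.10, and between 0 and 1 without 1 library. Of the pathway list genes, 25 were called, and 41 with library size alone, 39 by DESeq2, 0 with the covariate, 42 at an adjusted p under 0.10, and between 0 and 38 without 1 library. Calls in the direction of knockouts made up 61.4% of all calls with TMM, 81.8% with library size alone, 53.3% by DESeq2 and 54.8% by limma-voom. The number of genes whose value relative to the junction genes was lower in every knockout than in every control was 4 of 8, and 3 to 6 under the 9 alternatives. The 4 of 8 stand beside 57.1% of all other genes tested. That share was not computed under the alternatives, so their counts cannot be read as high or low.

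Same-numbered samples did not deviate together in all pairs (correlations -0.13, 0.012 and 0.21), so the number was not taken as pairing. With the replicate number as a block 0 genes in all, 0 of the 10 and 0 pathway genes were called (5432 at an unadjusted p under 0.05), and Tek turned to 0.026.

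Genes near 0 changed sign. Kdr was at 0.0066 with library size alone. Tek was at 0.044 with upper quartile scaling, 0.22 with library size alone and 0.034 by limma-voom, and between -0.32 and 0.27 without 1 library. Plvap was at 0.17 with library size alone and between -0.68 and 0.30 without 1 library. Ehd3 was at 0.0082 with upper quartile scaling, 0.20 with library size alone and 0.0067 with the covariate, and between -0.28 and 0.052 without 1 library. Flt1 ranged from -0.30 to 0.26 without 1 library. Pecam1, Cdh5, Tie1, Emcn and Nos3 kept their direction under all alternatives tried. The cause of these shifts was not tested. Whether depth or the spread between the 3 libraries a group set the precision was not tested either.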
